A study of Homo sapiens with 6 samples.

Results

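The 8 chemokine genes followed here through the silencing of the splicing factor SLU7 were CXCL1, CXCL2, CXCL3, CXCL5, CXCL6, CXCL8, CCL20 and CXCL16. They were taken by gene symbol, 8 of the 60607 genes in the expression tables, and 6 of the 8 had enough counts to be fitted; CXCL3 and CXCL6 did not. They were chosen by how their counts differed between silenced and control cells in these same libraries, so their own values are given as a description and carry no p-value. The cells were PLC/PRF/5, an established human line from a hepatocellular carcinoma, transfected with siRNAs against SLU7 (siSLU7, 3 libraries) or with the irrelevant siRNA siGL2 (3 libraries). RNA was taken 48 h later, and no untransfected cells, second cell line or immune cells were part of the comparison. No genotype or drug differed between the groups. Replicates are described as triplicates and no further, so p-values measure the spread between these libraries, which may be technical.

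Chemokines are small proteins that steer leukocytes along a concentration gradient through G-protein-coupled receptors. CXCL1, CXCL2, CXCL3, CXCL5, CXCL6 and CXCL8 carry the ELR motif of glutamate, leucine and arginine and draw neutrophils through CXCR1 and CXCR2, CCL20 draws cells that bear CCR6, and CXCL16 is made as a transmembrane protein that binds CXCR6 and is released by proteases. In epithelial and hepatoma cells the ELR genes and CCL20 are known as targets of NF-kB, aided by AP-1 and C/EBP factors. Their mRNAs are known to be short-lived, with AU-rich elements in the 3' untranslated region that decay factors such as ZFP36 bind.

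The promoter sequences show what the ELR genes share in DNA. RefSeq promoters of 300 bases (250 before and 50 after the start, GRCh38.p14) were at hand for 7 of the 8 genes (all but CXCL16). The NF-kB consensus stood in 6 of these 7 promoters, all but CXCL8, against 5.91% of all 35116 promoters. The decamer GGGAATTTCC was taken from its match in CXCL1, so CXCL1 holds it by construction. Searched on both strands, it stood in CXCL1, CXCL2, CXCL3, CXCL5 and CXCL6, against 0.145% of all promoters. These genes are paralogs with partly alike promoters, so their matches are not separate observations. Its inner nonamer GGAATTTCC overlaps it by construction and stood in CXCL8 as well, against 0.461% of promoters. CCL20 matched the consensus with another sequence, on the strand opposite to the gene. The stretches around these matches follow 5' to 3' on the strand of the gene, with the match in capitals.
CXCL1, chr4:73869299-73869338, plus strand: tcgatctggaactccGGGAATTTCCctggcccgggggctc
CXCL2, chr4:74099249-74099288, minus strand: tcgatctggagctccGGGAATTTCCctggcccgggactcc
CXCL3, chr4:74038744-74038783, minus strand: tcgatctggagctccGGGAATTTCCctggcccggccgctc
CXCL5, chr4:73998744-73998783, minus strand: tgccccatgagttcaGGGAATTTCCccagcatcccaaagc
CXCL6, chr4:73836573-73836612, plus strand: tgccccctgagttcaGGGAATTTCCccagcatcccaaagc
CXCL8, chr4:73740463-73740501, plus strand: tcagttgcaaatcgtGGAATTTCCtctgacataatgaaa
CCL20, chr2:227813748-227813787, plus strand: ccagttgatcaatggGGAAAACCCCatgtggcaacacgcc
The matches began between 78 and 91 bases before the start in all 7 promoters. A match describes letters and not a bound site.

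CXCL5 and CXCL6 had nearly the same stretch around the motif, and their whole promoters were identical at 251 of 300 positions (83.7%). CXCL1 and CXCL3 shared 84.7%, CXCL2 and CXCL3 78.3%, and CXCL1 and CXCL2 76.0%. The AP-1 motif TGANTCA was found in CXCL8 (7.71% of all promoters), TTGCNNAA, of the C/EBP type, in CXCL2 (10.5%), and TATAAA in CXCL8 and CCL20 (11.5%), each searched on both strands. Near matches were not counted, such as ttgcaaat in CXCL8, which differs from TTGCNNAA at its last base. A promoter without a match may thus still hold a site of that type. The promoters of CXCL5 and CXCL6 are given in full because they are so alike while the mRNAs were not, and that of CXCL8 because it had the highest fold. Capitals mark GGGAATTTCC in CXCL5 and CXCL6, and TGACTCA, GGAATTTCC and TATAAA in CXCL8.
CXCL5, chr4:73998628-73998927, minus strand: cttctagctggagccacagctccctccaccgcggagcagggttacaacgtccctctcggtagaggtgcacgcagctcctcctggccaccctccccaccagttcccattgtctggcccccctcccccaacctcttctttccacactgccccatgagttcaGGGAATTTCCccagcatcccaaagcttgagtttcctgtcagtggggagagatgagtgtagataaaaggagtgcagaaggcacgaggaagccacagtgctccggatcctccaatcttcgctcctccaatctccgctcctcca
CXCL6, chr4:73836428-73836727, plus strand: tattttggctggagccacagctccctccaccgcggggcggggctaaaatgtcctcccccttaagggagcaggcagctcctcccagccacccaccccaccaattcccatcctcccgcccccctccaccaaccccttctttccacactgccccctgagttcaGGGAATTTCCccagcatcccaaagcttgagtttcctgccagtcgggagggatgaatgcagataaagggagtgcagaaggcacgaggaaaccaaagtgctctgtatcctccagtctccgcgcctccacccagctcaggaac
CXCL8, chr4:73740319-73740618, plus strand: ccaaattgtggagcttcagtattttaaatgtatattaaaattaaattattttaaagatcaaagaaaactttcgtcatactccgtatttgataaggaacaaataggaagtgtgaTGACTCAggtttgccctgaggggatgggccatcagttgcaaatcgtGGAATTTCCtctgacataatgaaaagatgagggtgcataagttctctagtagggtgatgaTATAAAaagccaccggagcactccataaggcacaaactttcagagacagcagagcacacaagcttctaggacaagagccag

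The 3' untranslated region of CXCL16 had a lower density of ATTTA than those of the other 7 genes. This pentamer, the core of AU-rich elements, was counted in the GENCODE 29 transcripts of 17666 genes, where the median was 2 copies and 1.57 per kb. CXCL2 had 10 copies (13.9 per kb, a density that 0.430% of genes reached), CXCL3 had 7 (10.4 per kb), CXCL8 had 9 (7.19 per kb) and CXCL1 had 5 (7.08 per kb). CCL20 had 3 copies (6.65 per kb), CXCL5 had 11 (5.51 per kb) and CXCL6 had 6 (5.36 per kb). CXCL16 had a single copy (1.02 per kb), a density that 59.4% of genes reached. The densest stretch of 30 bases held 3, 5 and 4 copies in CXCL1, CXCL2 and CXCL8, 2 in CXCL3 and CXCL5, and 1 in CCL20, CXCL6 and CXCL16. Those of the 3 genes with the most copies and of CXCL16 are given, with ATTTA in capitals.
CXCL1: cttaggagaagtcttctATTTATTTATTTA
CXCL2: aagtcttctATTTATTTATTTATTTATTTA
CXCL8: taacctATTTAttATTTAtgtATTTATTTA
CXCL16: gccactgccctctcttaggcccctcATTTA

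The libraries held 6315740, 5191452 and 5361032 estimated counts for siSLU7 and 8693977, 7769866 and 7736584 for siGL2, with 28741 to 31694 genes detected. Mitochondrial ribosomal RNA took 29.9% to 35.3% of the counts in siSLU7 cells and 16.8% to 24.1% in siGL2 cells, and 7SL RNA took 8.10% to 10.7% in siSLU7 cells and 15.9% to 23.5% in siGL2 cells; their part in the results was not tested, beyond a fit without structural RNA. The deviations of siSLU7 replicate 3 and siGL2 replicate 1 from their group means correlated across genes (r = 0.44), so results are also given without both. Those of siSLU7 replicate 1 and siGL2 replicate 3 correlated nearly as much (r = 0.38), so the choice of these libraries, made after seeing the data, is not a clear one. SLU7 itself was at 9.38, 8.30 and 10.5 CPM, counts scaled to library size, in siSLU7 cells, against 20.9, 17.1 and 18.4 CPM in siGL2 cells. By edgeR's quasi-likelihood test the difference was -1.002 on the log2 scale (SE 0.18), with a Benjamini-Hochberg adjusted p of 0.0139. In TPM, which also corrects for transcript length, it was at 4.12, 4.34 and 4.67 in siSLU7 cells, against 4.69, 3.46 and 5.96 in siGL2 cells, values that overlap. Its adjusted p was 0.0556 without siSLU7 replicate 1, 0.0805 without siSLU7 replicate 2, 0.117 with offsets for transcript length and 0.868 by limma on TPM.

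The cells had hepatocyte and hepatoma markers: all 10 on the list were tested, with KRT8 at 529 to 653 CPM in siSLU7 cells and 614 to 788 CPM in siGL2 cells, and APOB at 11680 to 11910 CPM in siSLU7 cells and 12750 to 13810 CPM in siGL2 cells. Others were far lower: ALB was at 22.6 to 25.8 CPM in siSLU7 cells and 21.0 to 21.7 CPM in siGL2 cells. TTR was at 3.1 to 5.2 CPM in siSLU7 cells and 1.2 to 1.6 CPM in siGL2 cells. The list summed to 18480, 19600 and 24940 CPM in siSLU7 cells and 30930, 22130 and 19980 CPM in siGL2 cells. Most of this came from APOB and SERPINA1, the latter at 4062 to 10350 CPM in siSLU7 cells and 4259 to 13740 CPM in siGL2 cells. Of the list TTR alone passed the test, higher in siSLU7 cells. The 12 leukocyte markers summed to 54.0, 58.8 and 50.6 CPM in siSLU7 cells and to 70.0, 66.6 and 53.2 CPM in siGL2 cells, nearly all of it from CD68 and LYZ. Among them MS4A1 and S100A8 were at 0 in every library, 4 were tested, and PTPRC passed at 1.85, 2.03 and 1.495 CPM in siSLU7 cells and 0.377, 0.402 and 0.511 CPM in siGL2 cells. PTPRC rested on 12, 11 and 8 counts in siSLU7 cells and 3, 3 and 4 counts in siGL2 cells, and DESeq2 gave 0 calls among the leukocyte markers. Of 8 fibroblast markers 2 were tested and PDGFRB was lower in siSLU7 cells, with COL3A1 and LUM at 0 and list sums of 12.2 to 13.5 CPM in siSLU7 cells and 14.7 to 25.7 CPM in siGL2 cells. Of 5 endothelial markers 1 was tested and did not pass, with KDR and TEK at 0 and sums of 3.32 to 4.86 CPM in siSLU7 cells and 3.45 to 3.88 CPM in siGL2 cells. Among all tested genes 13.9% passed the test. The part of these markers in the chemokine values was not tested.

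CXCL8, interleukin-8, the neutrophil chemokine made by many stressed epithelial cells, had the highest fold of the 6 fitted genes. It was at 8.31, 9.22 and 4.67 CPM in siSLU7 cells (54, 50 and 25 counts), against 0.377, 1.21 and 0.767 CPM in siGL2 cells (3, 9 and 6 counts). Every siSLU7 library lay above every siGL2 library, and siSLU7 replicate 3 was the lowest of its group. The means were 7.40 ± 2.41 CPM in siSLU7 cells and 0.783 ± 0.415 CPM in siGL2 cells (SD, n = 3 each), a 9.34-fold difference (log2 fold change 3.22, SE 0.44). In bulk RNA, fewer cells that make a chemokine and less of its RNA per cell cannot be told apart.

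CXCL5, a neutrophil chemokine of epithelial cells, was at 8.46, 7.93 and 11.0 CPM in siSLU7 cells (55, 43 and 59 counts), against 2.64, 1.21 and 2.17 CPM in siGL2 cells (21, 9 and 17 counts). The lowest siSLU7 library was well above the highest siGL2 library. The means were 9.14 ± 1.66 CPM in siSLU7 cells and 2.01 ± 0.73 CPM in siGL2 cells, a 4.5-fold difference (log2 fold change 2.17, SE 0.32).

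CXCL1, the growth-regulated oncogene alpha, was at 2.77, 3.50 and 2.62 CPM in siSLU7 cells (18, 19 and 14 counts), against 1.13, 0.804 and 1.02 CPM in siGL2 cells (9, 6 and 8 counts). The groups did not overlap, and the values lay close together within each. The means were 2.96 ± 0.47 CPM in siSLU7 cells and 0.986 ± 0.167 CPM in siGL2 cells, a 2.96-fold difference (log2 fold change 1.56, SE 0.36).

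CXCL2, a close paralog of CXCL1 with the same receptor, was at 1.85, 2.21 and 2.43 CPM in siSLU7 cells (12, 12 and 13 counts), against 2.14, 1.34 and 1.15 CPM in siGL2 cells (17, 10 and 9 counts). Here the groups overlapped, because siGL2 replicate 1 was as high as the siSLU7 libraries. The means were 2.16 ± 0.29 CPM in siSLU7 cells and 1.54 ± 0.52 CPM in siGL2 cells, with a log2 fold change of 0.47 (SE 0.38). CXCL3, the third of these paralogs, held 8, 6 and 10 counts in siSLU7 cells and 4, 8 and 5 counts in siGL2 cells. That is 1.23, 1.11 and 1.87 CPM in siSLU7 cells and 0.503, 1.07 and 0.639 CPM in siGL2 cells, groups that just miss each other at 1.11 and 1.07 CPM. The ratio of its summed counts after scaling was 1.90 (95% exact interval 0.979 to 3.77, counting error only), siSLU7 over siGL2.

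CXCL6, which lies beside CXCL8 in the cluster and has a coding sequence 87.5% identical to that of CXCL5, was barely detected. It held 0, 0 and 1 count in siSLU7 cells, against 2, 5 and 2 counts in siGL2 cells. The ratio was 0.150 (95% exact interval 0.00341 to 1.08, counting error only). Thus CXCL6 was at most 0.187 CPM in siSLU7 cells, where CXCL5, with the 83.7% identical promoter given above, was at 7.93 CPM or more.

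CCL20, which recruits dendritic cells and lymphocytes with CCR6, was at 7.69, 9.03 and 6.73 CPM in siSLU7 cells (50, 49 and 36 counts), against 4.77, 3.62 and 3.71 CPM in siGL2 cells (38, 27 and 29 counts). No siGL2 library reached a siSLU7 library. The means were 7.82 ± 1.16 CPM in siSLU7 cells and 4.03 ± 0.64 CPM in siGL2 cells, a 1.93-fold difference (log2 fold change 0.95, SE 0.24).

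CXCL16, the membrane-bound chemokine and scavenger receptor, was the only fitted gene of the 8 that was lower in siSLU7 cells. It was at 72.9, 63.2 and 61.1 CPM in siSLU7 cells (474, 343 and 327 counts), against 95.2, 161.9 and 122.9 CPM in siGL2 cells (758, 1209 and 962 counts). The groups did not overlap, and the siGL2 libraries varied more than the siSLU7 libraries. The means were 65.7 ± 6.3 CPM in siSLU7 cells and 126.7 ± 33.5 CPM in siGL2 cells, a ratio of 0.519 (log2 fold change -0.95, SE 0.21).

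**Figure D1:**
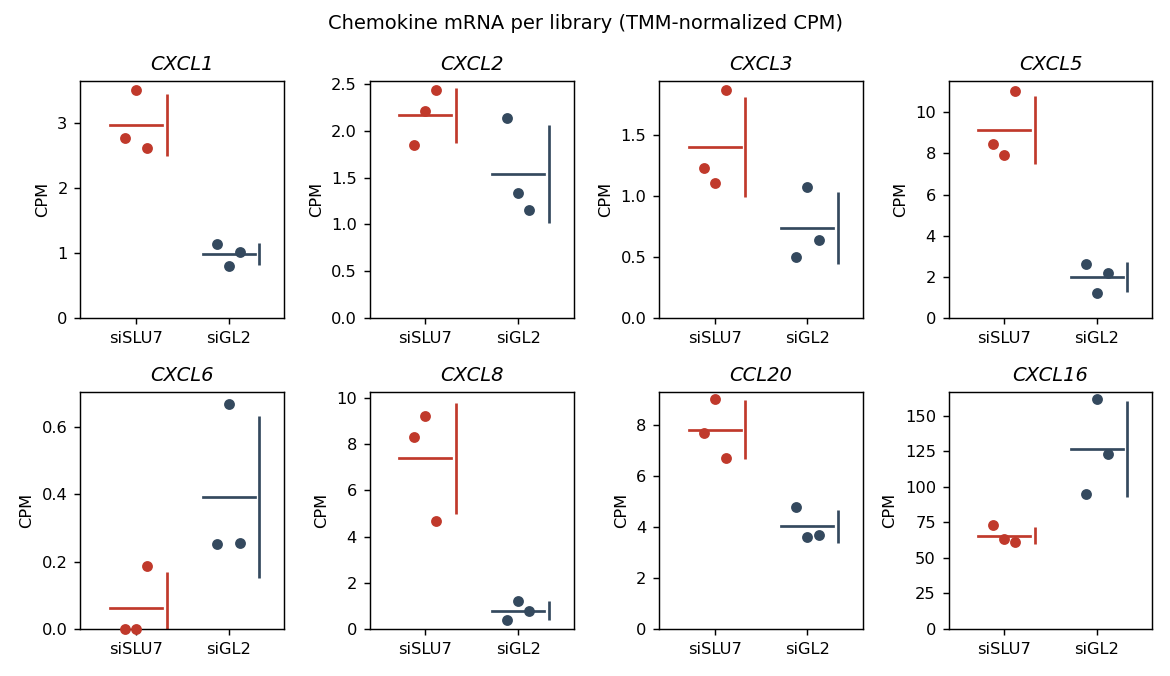
TMM-normalized CPM (y axis, linear from 0) of the 8 chemokine genes in siSLU7 libraries (left, red) and siGL2 libraries (right, dark blue). Points are libraries, horizontal lines the mean and vertical lines 1 SD (n = 3). The groups are apart for CXCL1, CXCL5, CXCL8, CCL20 and CXCL16, overlap for CXCL2, and rest on 10 counts or fewer per library for CXCL3 and CXCL6.

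Of the 6 fitted genes, 4 (CXCL1, CXCL5, CXCL8 and CCL20) lay past the threshold as higher and CXCL16 as lower, and in these 5 the groups did not overlap. Among all 17109 genes tested, 13.9% passed in either direction, 5.93% as higher and 7.93% as lower, and 36.6% had groups that did not overlap. Of the genes that passed, 42.8% were higher, against 95.2% by limma on log2(TPM + 1). As the chemokine genes were picked for this difference in these same libraries, lying past the threshold describes the pick and is no test of them. Nothing is read from the count. The median log2 fold change of all tested genes was -0.0068. The 7 genes other than CXCL16 summed to 197, 179 and 158 counts in siSLU7 cells, against 94, 74 and 76 counts in siGL2 cells. On the TPM scale the sums were 22.9, 23.3 and 23.5 in siSLU7 cells, against 7.15, 5.08 and 5.87 in siGL2 cells. The siSLU7 sums lay within 1 TPM of each other although CXCL8 alone ranged from 3.98 to 7.12 TPM.

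The genes were ordered by TPM level within each group, summed over coding and other transcripts. In siSLU7 cells CXCL16 stood first at 59.5 ± 6.6 TPM, followed by CCL20 at 9.54 ± 0.32 and CXCL8 at 6.05 ± 1.79 (mean ± SD, n = 3). CXCL5 at 2.47 ± 0.47, CXCL2 at 2.14 ± 0.51 and CXCL1 at 2.06 ± 0.33 TPM came next and did not differ beyond their spread. CXCL3 had 0.895 ± 0.523 TPM and CXCL6 0.0981 ± 0.170 TPM. In siGL2 cells CXCL16 at 82.4 ± 8.3 TPM and CCL20 at 2.72 ± 0.67 TPM again led, and CXCL2 came next at 1.30 ± 0.59 TPM. Much of this lay on short transcripts not listed as coding, so it is no order of coding mRNA. The processed transcript CXCL16-204 held 61.4, 71.9 and 76.2 TPM in siGL2 cells, and the coding CXCL2-202 only 0.213, 0.141 and 0.236 TPM. The other genes of this group came after CXCL2. CXCL1 at 0.583 ± 0.105, CXCL8 at 0.415 ± 0.145, CXCL5 at 0.386 ± 0.177, CXCL3 at 0.359 ± 0.142 and CXCL6 at 0.271 ± 0.078 TPM followed, with neighbours within each other's spread.

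The size of the folds depended on how the values were scaled and on single libraries. Over 15 other settings the log2 fold change of CXCL8 ran between 2.29 and 3.65, that of CXCL5 between 1.32 and 2.41 and that of CXCL1 between 0.95 and 1.75. That of CCL20 ran between 0.84 and 1.52 and that of CXCL16 between -1.12 and -0.46, and none of the 6 turned sign. Without siSLU7 replicate 3 and siGL2 replicate 1 together, the values were 3.13 for CXCL8, 2.26 for CXCL5, 1.75 for CXCL1, 1.19 for CCL20, 0.69 for CXCL2 and -1.06 for CXCL16, and 29.8% of 17583 genes passed. Without siSLU7 replicate 2, none of the genes tested by edgeR passed (4244 had an unadjusted p under 0.05), and the log2 fold changes were 3.04 for CXCL8, 2.26 for CXCL5 and 0.84 for CCL20. The calls of CXCL1, CCL20 and CXCL16 were also lost without siGL2 replicate 2 or 3 or siSLU7 replicate 1 or 3, which is a limit of these calls and no ranking of the genes. With offsets for transcript length CXCL1 had 1.27. On log2(TPM + 1) the median gene shifted by 0.35, and relative to it the values were 1.93 for CXCL8, 1.17 for CCL20, 0.97 for CXCL5, 0.60 for CXCL1, 0.11 for CXCL2 and -0.82 for CXCL16.

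**Figure D2:**
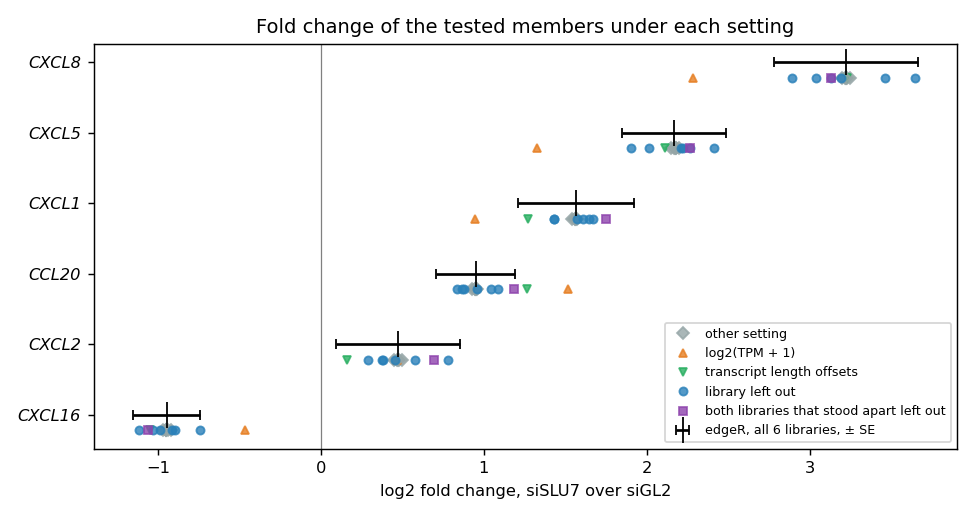
Log2 fold change, siSLU7 over siGL2 (x axis), of the 6 fitted chemokine genes. Black bars are the edgeR estimate from all 6 libraries ± SE and coloured symbols the same gene under another setting, each left-out library included. CXCL8, CXCL5, CXCL1, CCL20 and CXCL2 stay right of 0 and CXCL16 left of it, and the log2(TPM + 1) scale gives the smallest values for CXCL8, CXCL5 and CXCL1.

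The CXCL1, CXCL2 and CXCL3 transcripts share so much sequence that their reads can be split between genes. Their coding sequences were 93.5% (CXCL1 and CXCL2), 90.7% (CXCL1 and CXCL3) and 94.4% (CXCL2 and CXCL3) identical. Of the stretches of 31 bases in the GENCODE 29 transcripts, 16.1% of those in CXCL1-201 and 20.5% in CXCL2-202 also occurred in other genes, mostly in each other. For CXCL3 it was 7.01% in CXCL3-204, which held 55.8% or more of the gene's counts in each siSLU7 library, 9.57% in CXCL3-201 and 30.2% in CXCL3-202. For CXCL5-201 the share was 5.02% and for CCL20-205 it was 6.81%. CXCL8 and the other CCL20 transcripts shared none. When CXCL1, CXCL2 and CXCL3 were summed to 1 feature, the log2 fold change was 0.99.

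The transcripts behind each gene were not all coding. Both coding transcripts of CXCL8 were higher in siSLU7 cells: CXCL8-202 held 4.10, 3.90 and 2.90 CPM in siSLU7 cells, against 0, 0.517 and 0.419 CPM in siGL2 cells. CXCL8-201 held 3.45, 4.56 and 1.78 CPM in siSLU7 cells, against 0.181, 0.647 and 0.348 CPM in siGL2 cells. Neither transcript overlapped between the groups. The retained-intron transcript CXCL8-203 held 0.760, 0.766 and 0 CPM in siSLU7 cells and at most 0.196 CPM in siGL2 cells.

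The transcripts of CXCL2, whose gene total overlapped, did not all lie in 1 direction. Its coding transcript CXCL2-202 was at 0.854, 1.78 and 1.01 CPM in siSLU7 cells (5.5, 9.6 and 5.4 estimated counts), against 0.455, 0.378 and 0.472 CPM in siGL2 cells (3.6, 2.8 and 3.7). Its retained-intron transcript CXCL2-203 was at 0.174, 0.435 and 0.235 CPM in siSLU7 cells, against 0.630, 0.464 and 0.448 CPM in siGL2 cells. Neither overlapped between the groups, and they lay in opposite directions, on fewer than 10 counts per library each and with reads that other CXCL genes can share. The remaining transcript, CXCL2-201, overlapped, at 0.819, 0 and 1.19 CPM in siSLU7 cells, against 1.05, 0.497 and 0.230 CPM in siGL2 cells. The coding share of the gene's counts was 46.25%, 80.3% and 41.4% in siSLU7 cells, against 21.3%, 28.2% and 41.05% in siGL2 cells, and so nearly met. The coding transcript of CXCL3 was listed at 0 in every library, and the counts of that gene sat on its processed transcripts. The coding transcripts of CCL20 summed to 5.40, 7.99 and 6.73 CPM in siSLU7 cells, against 4.11, 2.65 and 2.65 CPM in siGL2 cells, without overlap. Among them the short CCL20-205, of 397 bases, held 13.8%, 9.77% and 36.2% of the gene's counts in siSLU7 cells. It was at 2.62, 2.11 and 6.06 TPM there, against 0.138, 0 and 0 TPM in siGL2 cells. The TPM difference of CCL20 thus rests in part on this transcript, which shares sequence with other genes. CXCL5 had a single transcript.

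The CXCL16 difference lay mainly on a short transcript. CXCL16-204, of 619 bases, is named a processed transcript in the deposited tables and a retained intron in GENCODE 29, where its first exon begins 49 bases inside the intron before exon 3 of CXCL16-201. It was at 38.2, 31.1 and 36.1 CPM in siSLU7 cells, against 64.5, 96.4 and 76.4 CPM in siGL2 cells, and the groups were far apart. The 4 transcripts that the tables call coding summed to 34.7, 32.0 and 25.0 CPM in siSLU7 cells, against 30.7, 65.6 and 46.5 CPM in siGL2 cells. These overlapped, since siGL2 replicate 1 fell among the siSLU7 libraries. Among them CXCL16-205, coding in the deposited tables but a processed transcript in GENCODE 29, did not overlap, at 9.27, 1.26 and 2.66 CPM in siSLU7 cells, against 14.6, 10.7 and 12.8 CPM in siGL2 cells. CXCL16-204 took 52.4%, 49.3% and 59.1% of the gene's counts in siSLU7 cells, against 67.7%, 59.5% and 62.2% in siGL2 cells, shares that did not overlap but nearly met. On the TPM scale CXCL16-204 was also apart, at 50.4, 39.4 and 47.4 TPM in siSLU7 cells, against 61.4, 71.9 and 76.2 TPM in siGL2 cells. Each of the 4 coding transcripts overlapped in TPM, CXCL16-205 included, and their TPM sum was not lower in siSLU7 cells. The split among the coding transcripts varied between libraries of 1 group, as CXCL16-201 was at 0, 53.5 and 28.1 CPM in siGL2 cells. CXCL16 overlaps MED11 on the opposite strand (named here after its values were seen), and without a stated strand setting reads of the overlap cannot be told apart. MED11, a Mediator subunit, was at 2.0, 2.58 and 5.05 CPM in siSLU7 cells, against 4.52, 6.30 and 7.54 CPM in siGL2 cells (log2 fold change -0.94, edgeR adjusted p = 0.125).

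**Figure D3:**
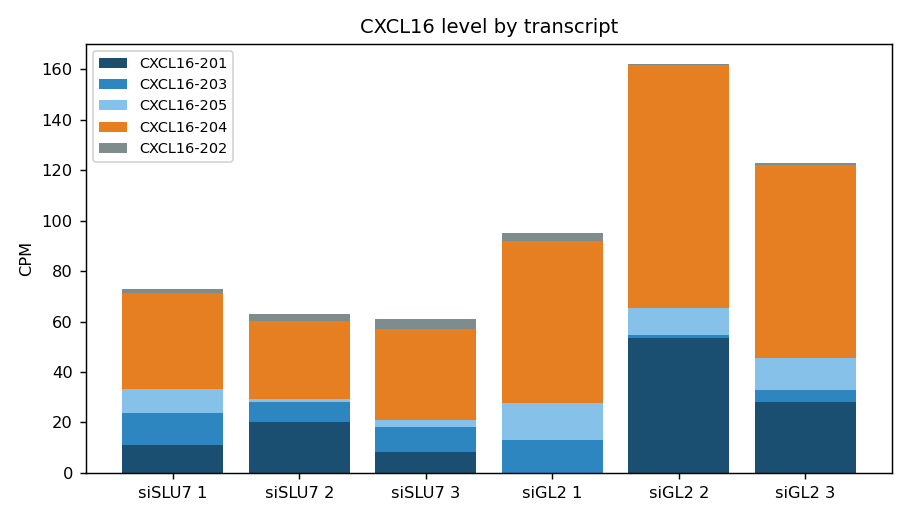
CPM of CXCL16 (y axis, from 0) in each siSLU7 and siGL2 library, stacked by transcript. The CXCL16-204 segment (orange) is at 31.1 to 38.2 CPM in siSLU7 libraries and 64.5 to 96.4 CPM in siGL2 libraries, while the coding segments together overlap between the groups.

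The 6 ELR genes lie in 1 cluster on chromosome 4 (4q13, GRCh38, GENCODE 29). CXCL8 spans chr4:73740506-73743716 on the plus strand, CXCL6 chr4:73836497-73849064 and CXCL1 chr4:73869393-73871242 on the same strand. On the minus strand lie CXCL5 at chr4:73995642-73998779, CXCL3 at chr4:74036589-74038807 and CXCL2 at chr4:74097035-74099293. CCL20 lies elsewhere, at chr2:227805739-227817564 on the plus strand, and CXCL16 at chr17:4733526-4739922 on the minus strand. Within the cluster the higher genes alternated with undetected ones: PF4V1, PF4 and PPBP, chemokines of platelets, were at 0 in all 6 libraries. The pseudogenes CXCL1P1 and PPBPP1 were at 0 as well.

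None of the 6 tested neighbours of the cluster passed the edgeR test, and none had an unadjusted p under 0.05 or passed with DESeq2 or limma. ALB, albumin, had a log2 fold change of 0.19, AREG, an EGF receptor ligand, of 0.16, EREG, another, of -0.11, and MTHFD2L, a mitochondrial folate enzyme, of 0.10. PARM1, a membrane mucin, had -0.40 and RASSF6, a RAS association domain protein, 0.22. MTHFD2L, which starts 373.7 kb from the CXCL8 start where CXCL2 starts at 358.8 kb, was at 9.54, 13.1 and 9.34 CPM in siSLU7 cells, against 8.54, 11.0 and 10.4 CPM in siGL2 cells, values that overlap. Some of these small values change sign with the scaling: RASSF6, PARM1 and EREG do so on log2(TPM + 1), and RASSF6 and MTHFD2L with offsets for transcript length.

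**Figure D4:**
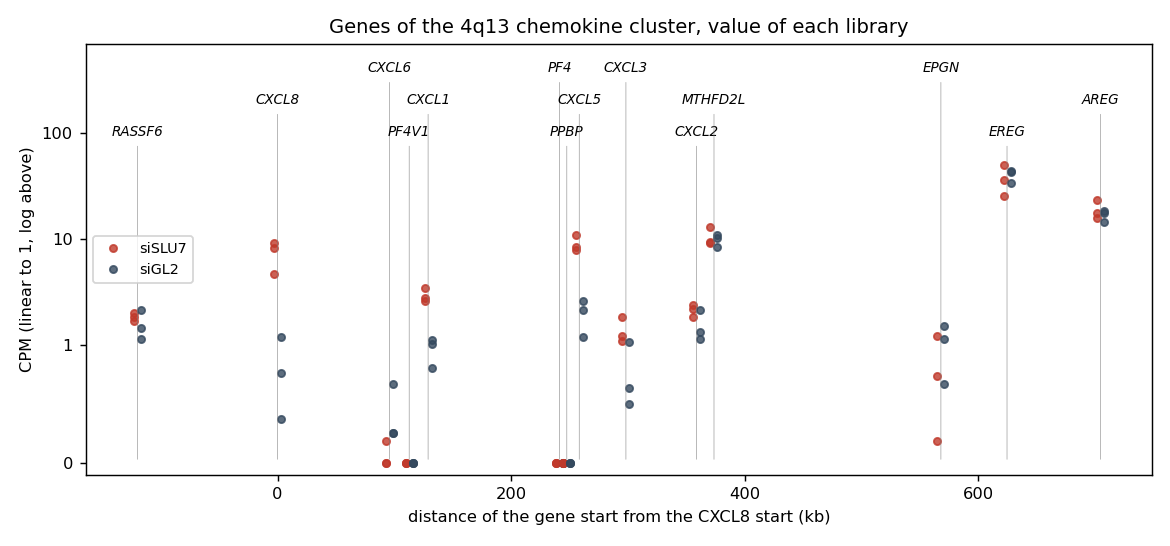
CPM (y axis, linear to 1 and logarithmic above) of the genes of the 4q13 cluster by the distance of their start from that of CXCL8 in kb (x axis). Each point is a library, siSLU7 left in red and siGL2 right in dark blue. CXCL8, CXCL1 and CXCL5 are apart between the groups, PF4V1, PF4 and PPBP are at 0, and MTHFD2L, EREG and AREG overlap.

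Among the other chemokine ligands 1 passed the test. Of 38 listed, 37 were in the tables, 18 were at 0 in every library and 7 were tested, with a median log2 fold change of 0.26. The 1 call among these 7 is a share near the 13.9% of all tested genes that passed. CXCL12, named after its values were seen, was at 48.1, 46.3 and 55.3 CPM in siSLU7 cells, against 38.2, 39.0 and 38.7 CPM in siGL2 cells, and did not pass (log2 fold change 0.37, adjusted p = 0.109). CX3CL1, fractalkine, like CXCL16 made as a membrane protein, rose as the single call: it was at 3.08, 3.69 and 4.67 CPM in siSLU7 cells, against 1.38, 1.21 and 1.66 CPM in siGL2 cells (log2 fold change 1.41, SE 0.33, adjusted p = 0.0285). Its groups did not overlap, on 20, 20 and 25 counts in siSLU7 cells and 11, 9 and 13 counts in siGL2 cells. Of the 7 tested ligands 2 had groups that did not overlap, against 36.6% of all tested genes. The call was lost with offsets for transcript length and when any library other than siGL2 replicate 1 was left out.

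The neutrophil chemokine receptors were at or near 0, and those of CCL20 and CXCL16 were low. CXCR1, a receptor of CXCL8, was at 0 in every library and CXCR2, the shared receptor of the ELR chemokines, at 0.308 CPM or below. Of 23 receptors 3 were tested, none passed the edgeR test, none had an unadjusted p under 0.05, and DESeq2 and limma made no call. CCR6, the CCL20 receptor, was at 3.85, 3.13 and 4.30 CPM in siSLU7 cells, against 4.90, 4.82 and 3.96 CPM in siGL2 cells (log2 fold change -0.28, adjusted p = 0.508). CXCR6, the CXCL16 receptor, was at 6.15, 4.24 and 5.42 CPM in siSLU7 cells, against 3.52, 3.21 and 6.01 CPM in siGL2 cells (0.31, adjusted p = 0.535). Both overlapped between the groups.

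The cytokines best known to induce the ELR genes were at or near 0. The 2 cytokine receptor genes that passed the test fell, while another, IL6ST, was higher and just missed the threshold. TNF, IL17A and IL17C were at 0 in every library, and IL1A, IL1B and IL6 held at most 4 counts per library (0.503 CPM or below). LTB, lymphotoxin beta, named after its values were seen, was at 2.92, 2.40 and 7.85 CPM in siSLU7 cells, against 9.80, 5.22 and 3.07 CPM in siGL2 cells, values that overlap. Of 22 listed genes 12 were tested, 1 rose and 2 fell (median log2 fold change -0.16). Among all tested genes 5.93% were higher and 7.93% lower. By limma on log2(TPM + 1), 2 of the list were higher and 0 lower. TLR2, a receptor for bacterial lipoproteins, was at 3.08, 5.35 and 7.66 CPM in siSLU7 cells, against 2.26, 1.21 and 0.767 CPM in siGL2 cells (log2 fold change 1.90, SE 0.48, adjusted p = 0.0333). TNFRSF1A, the main TNF receptor, was at 14.3, 17.5 and 11.0 CPM in siSLU7 cells, against 26.3, 42.1 and 41.0 CPM in siGL2 cells (-1.35, SE 0.24, adjusted p = 0.0134). IL17RC, a chain of the interleukin-17 receptor, was at 4.46, 4.06 and 3.92 CPM in siSLU7 cells, against 9.05, 15.8 and 8.69 CPM in siGL2 cells (-1.42, SE 0.29, adjusted p = 0.0185). Every siSLU7 library lay on its own side of the siGL2 libraries for all 3 genes. Over the list this held for 8 of the 12 tested, against 36.6% of all tested genes. IL6ST, named after its values were seen, was at 152.9, 125 and 116.6 CPM in siSLU7 cells, against 88.7, 82.1 and 96.4 CPM in siGL2 cells. Its groups did not overlap (log2 fold change 0.56, SE 0.16, edgeR adjusted p = 0.0506). With RLE factors, the stricter filter, DESeq2 or no structural RNA, 2 genes of the list were higher and 2 lower. The list had 5 calls without siGL2 replicate 1, 0 without siGL2 replicate 2, siSLU7 replicate 1 or siSLU7 replicate 2, and 1 without siGL2 replicate 3 or siSLU7 replicate 3.

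Of 33 listed genes of NF-kB signalling, 32 were tested, 6 rose and 1 fell, against 5.93% of all tested genes that were higher and 7.93% that were lower. The median log2 fold change of the list was 0.19. MAP3K14, the kinase NIK of the non-canonical pathway, was at 17.8, 13.8 and 17.4 CPM in siSLU7 cells, against 5.15, 7.23 and 7.03 CPM in siGL2 cells (log2 fold change 1.34, SE 0.21, adjusted p = 0.0102). TNFAIP3, the ubiquitin-editing inhibitor A20 and itself an NF-kB target, was at 15.7, 23.96 and 30.6 CPM in siSLU7 cells, against 10.2, 11.0 and 8.31 CPM in siGL2 cells (1.25, SE 0.26, adjusted p = 0.0193). BIRC3, an ubiquitin ligase of the TNF receptor complex, had a log2 fold change of 0.92 (SE 0.20, adjusted p = 0.0223). NFKBIZ, a nuclear cofactor of NF-kB, had one of 0.76 (SE 0.17, adjusted p = 0.0225). IRAK1, a kinase of the interleukin-1 and Toll-like receptors, fell to 31.8, 34.8 and 33.8 CPM in siSLU7 cells, against 54.8, 66.3 and 57.6 CPM in siGL2 cells (-0.83, SE 0.14, adjusted p = 0.0121). In these 5 genes, picked for a small p, the groups did not overlap. Over the list this held for 13 of the 32 tested, near the 36.6% of all tested genes. REL and MAP3K7, named after their values were seen, also rose, by 0.68 and 0.49, whereas the subunit RELA (0.23, adjusted p = 0.573) and the inhibitor NFKBIA (0.71, adjusted p = 0.0644), likewise named afterwards, did not pass. With 1 library left out, 6 were higher and 2 lower without siGL2 replicate 1, 1 higher and 1 lower without siGL2 replicate 2 or 3, 1 higher and 0 lower without siSLU7 replicate 1, 0 either way without siSLU7 replicate 2, and 2 higher and 1 lower without siSLU7 replicate 3. By limma on TPM 12 were higher and 0 lower, and with length offsets 2 were higher and 0 lower.

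Among other NF-kB target genes few passed: of 21 listed, 11 were tested, 1 rose and 1 fell (median log2 fold change -0.05), a share near the 13.9% of all tested genes. By limma on log2(TPM + 1), 3 were higher and 0 lower, and with length offsets 2 were higher and 0 lower. IRF1, an interferon regulatory factor, was at 15.8, 14.6 and 18.5 CPM in siSLU7 cells, against 9.05, 5.63 and 7.41 CPM in siGL2 cells (1.14, SE 0.22, adjusted p = 0.0166). IER3, an immediate early gene tied to cell survival, was at 35.1, 29.7 and 29.7 CPM in siSLU7 cells, against 52.9, 55.2 and 43.1 CPM in siGL2 cells (-0.68, SE 0.16, adjusted p = 0.0285). Both genes had groups that did not overlap, as had 5 of the 11 tested, against 36.6% of all tested genes. The 2 calls were lost on leaving out any single library except siGL2 replicate 1.

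Among the C/EBP and AP-1 factors that are known to act with NF-kB at chemokine promoters, 3 fell and 1 rose in edgeR's test, a split that did not hold on the TPM scale. Of 12 listed, 11 were tested, with a median log2 fold change of -0.71, against -0.0068 for all tested genes. Among all tested genes 5.93% were higher and 7.93% lower. By limma on log2(TPM + 1), 2 were higher and 1 lower, with a median of -0.033. CEBPB, the C/EBP factor of the acute phase response, fell to 16.2, 16.4 and 14.4 CPM in siSLU7 cells, against 43.7, 47.0 and 44.5 CPM in siGL2 cells (log2 fold change -1.52, SE 0.15, adjusted p = 0.00632). CEBPD, its relative, was at 2.61, 3.69 and 2.99 CPM in siSLU7 cells, against 5.15, 19.2 and 10.7 CPM in siGL2 cells (-1.91, SE 0.46, adjusted p = 0.0296). FOSL2, a FOS-type subunit of AP-1, was at 6.77, 10.7 and 6.17 CPM in siSLU7 cells, against 14.5, 20.1 and 17.1 CPM in siGL2 cells (-1.13, SE 0.25, adjusted p = 0.0230). JUN, the AP-1 partner, rose to 13.7, 19.7 and 17.4 CPM in siSLU7 cells, against 8.04, 10.9 and 8.69 CPM in siGL2 cells (0.88, SE 0.21, adjusted p = 0.0298). None of the 4, picked for a small p, overlapped between the groups. Over the list 5 of the 11 tested did not overlap, against 36.6% of all tested genes. The list had 7 calls without siGL2 replicate 1, 0 without siSLU7 replicate 2 and 1 without any other single library, and 2 with length offsets.

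Of the proteins that bind AU-rich elements, all 14 listed were tested, 2 rose and 1 fell (median log2 fold change 0.02), against 13.9% of all tested genes that passed. ZFP36, tristetraprolin, which directs the decay of such mRNAs, fell to 5.08, 4.98 and 4.67 CPM in siSLU7 cells, against 12.3, 43.1 and 25.2 CPM in siGL2 cells (log2 fold change -2.45, SE 0.42, adjusted p = 0.0120). Its siGL2 libraries varied widely but none reached down to the siSLU7 libraries. ZC3H12C, of the regnase family of RNases, was at 19.4, 15.7 and 16.6 CPM in siSLU7 cells, against 6.41, 7.23 and 8.56 CPM in siGL2 cells (1.22, SE 0.20, adjusted p = 0.0102). HNRNPD, the AU-rich element factor AUF1, was at 30.9, 28.6 and 31.02 CPM in siSLU7 cells, against 16.2, 17.4 and 18.7 CPM in siGL2 cells (0.79, SE 0.15, adjusted p = 0.0154). The groups were apart for both, and for 4 of the 14 tested, against 36.6% of all tested genes. The list had 0 calls without siSLU7 replicate 1 or 2 and 2 or 3 without any other single library.

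Genes that release CXCL16 from the membrane gave 1 call among 4, against 13.9% of all tested genes that passed. All 4 listed were tested and RHBDF2, a cofactor of the protease ADAM17, was at 9.84, 9.58 and 10.8 CPM in siSLU7 cells, against 15.5, 19.0 and 13.9 CPM in siGL2 cells (log2 fold change -0.68, SE 0.19, adjusted p = 0.0475). The groups did not overlap, as in 2 of the 4 genes, against 36.6% of all tested genes. The call was lost with DESeq2, without the filter, with offsets for transcript length (-0.19) and on leaving out any single library except siGL2 replicate 1, and on log2(TPM + 1) the value was 0.33. ADAM10 (log2 fold change -0.0016) and ADAM17 (-0.14), proteases known to cleave CXCL16 and named after their values were seen, did not pass.

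**Figure D5:**
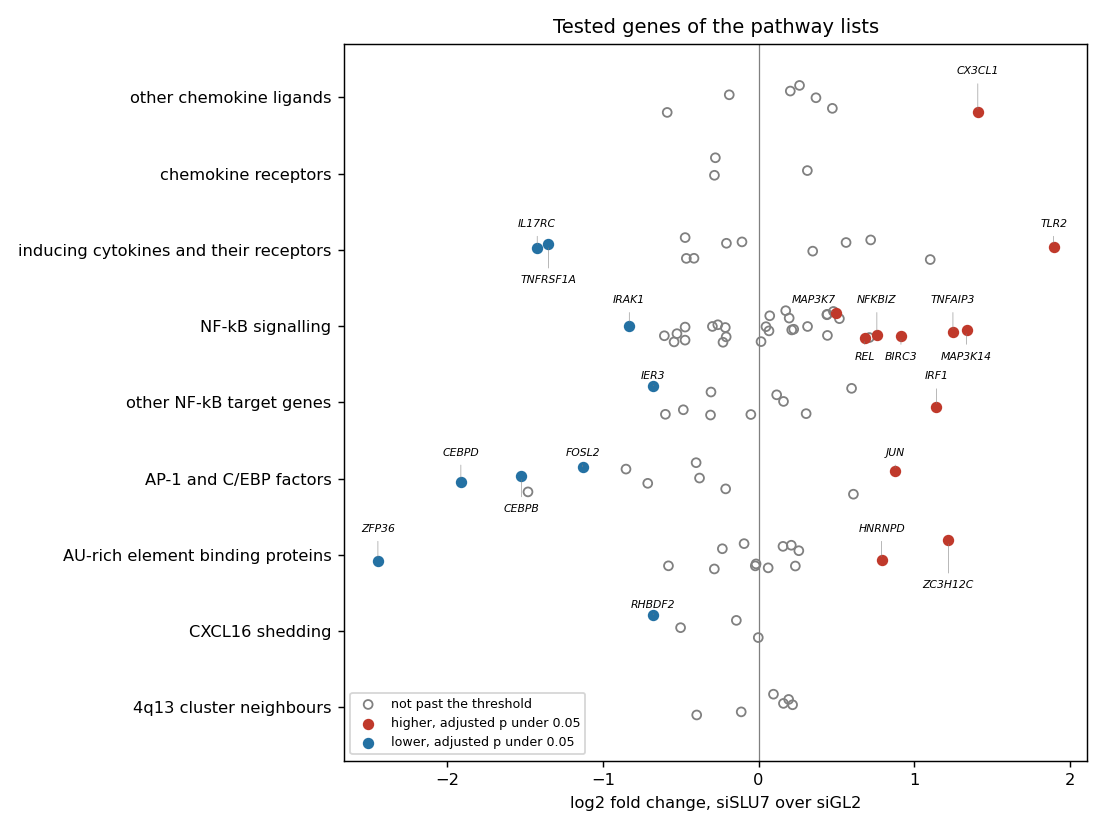
Log2 fold change, siSLU7 over siGL2 (x axis), of every tested gene in the 9 lists (y axis). Filled points passed edgeR's test at an adjusted p under 0.05, red higher and blue lower, and open points did not. NF-kB signalling has 6 red points and 1 blue point, the AP-1 and C/EBP list 1 red and 3 blue, and the receptors and the 4q13 neighbours none.

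Among the genes whose levels were most like the mean profile of the 6 fitted chemokines were ATG16L1, an autophagy protein (r = 0.999 over the 6 libraries), ZWINT, a kinetochore protein (0.996), PLD6, a mitochondrial phospholipase (0.996), and TIMM23B, of the mitochondrial import channel (0.996). The measure was Pearson's r between log2 CPM and the mean standardized log2 CPM of the 6 genes, so genes most like it run opposite to CXCL16, the lower 1 of the 6. The 6 points share their libraries and the split into groups, and 1117 of 17103 genes had r over 0.9, so the likeness is a description only. ATG16L1 was at 87.5, 99.0 and 87.6 CPM in siSLU7 cells, against 50.1, 43.0 and 42.9 CPM in siGL2 cells.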

How the data were processed

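For 3 siSLU7 and 3 siGL2 samples RNA was extracted with TRIzol and made into ScriptSeq libraries from polyA RNA, per the labels' protocols. FastQC 0.11.8, Trimmomatic 0.38, kallisto 0.46.1, sleuth 0.30.0 and GRCh38 are named per the submitters' processing notes, without roles or order; strand setting and transcript release: not given in the sources used here. The authors deposited estimated counts, which are not normalized, and TPM, which is scaled by effective length, for 234485 transcripts, per the file headers. Estimated counts were summed per gene and rounded (159 chromosome Y records of the pseudoautosomal regions were added to X), and TPM was summed per gene.

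Groups came from the sample titles. edgeR 4.0.16 in R 4.3.3 fitted the 17109 genes that passed filterByExpr. This asks for the CPM of about 10 counts in a library of median size, in at least 3 libraries, and for 15 counts in all. A gene can thus pass through 1 group alone, as CXCL8 did with 3, 9 and 6 counts in siGL2 cells and CXCL1 with 9, 6 and 8. CXCL2 (17, 10 and 9 counts in siGL2 cells) and CXCL5 (21, 9 and 17) also needed siSLU7 libraries to pass. So did CX3CL1 (11, 9 and 13), TLR2 (18, 9 and 6), TTR (13, 9 and 10) and PTPRC (3, 3 and 4). The calls of these genes as higher thus rest on entry through the group where they were high. The fit used TMM scaling, a quasi-likelihood test of siSLU7 against siGL2 and Benjamini-Hochberg adjustment, threshold 0.05. CPM uses TMM-scaled library sizes. Alternatives were RLE factors, no filter, a stricter filter, the replicate number as a block, each library left out, DESeq2 1.42.0, limma 3.58.1 on log2(TPM + 1), transcript length offsets, no structural RNA, and summed paralogs. A fit without both libraries that stood apart was added after seeing the data.

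The chemokine genes and all lists were chosen with earlier results of these data known. Named were the 8 chemokines, SLU7, per list the 5 genes past the test with the smallest p (2 where none passed), every tested 4q13 neighbour and the 5 most alike genes, of which 1 is not reported here; others are marked. Promoters are from RefSeq (GRCh38.p14); other coordinates and sequences are from GENCODE 29.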

Additional observations from a re-analysis of the deposited data

How the results depend on the processing

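With RLE factors, the stricter filter, no structural RNA, or without both libraries that stood apart, all 34 fold changes that the naming rule picked kept their direction and side of the threshold. The 2371 genes past the test became 967 with length offsets, 5248 without both libraries that stood apart, and between 0 (without siSLU7 replicate 2) and 4457 (without siGL2 replicate 1) with 1 library left out. By limma on log2(TPM + 1), 3135 passed and 95.2% of them were higher, against 42.8% in edgeR, with a median shift of 0.35.

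The replicate numbers did not pair the libraries: the deviations of same-numbered libraries correlated at -0.41, 0.11 and -0.37. With the replicate number as a block, 0 genes passed edgeR's test (4209 at an unadjusted p under 0.05), so each list had 0 calls and 25 of the 34 named fold changes lost their call.

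Length offsets gave 0 calls among other ligands, 2 in NF-kB signalling, 2 in AP-1 and C/EBP and 0 in shedding. Without both libraries that stood apart there were 5 in inducing cytokines and receptors, 11 in NF-kB signalling, 4 in other targets and 2 in shedding. limma gave 12 in NF-kB signalling and 0 in shedding, where no filter and DESeq2 also gave 0. With 1 library left out the ranges were 0 to 1 (ligands, shedding), 0 to 5 (inducing cytokines), 0 to 8 (NF-kB signalling), 0 to 2 (other targets), 0 to 7 (AP-1 and C/EBP) and 0 to 3 (AU-rich binding).

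Values that turned sign were RHBDF2 (0.33), EREG (0.19), PARM1 (0.047) and RASSF6 (-0.12) by limma on TPM, RASSF6 (-1.01) and MTHFD2L (-0.059) with length offsets; the causes were not tested. With 1 library left out, AREG ran between -0.022 and 0.28, MTHFD2L between -0.074 and 0.18 and EREG between -0.39 and 0.10. The summed paralogs had a log2 fold change of 0.99. DESeq2 gave no adjusted p for CXCL1 and CXCL2. Depth limits CXCL3 and CXCL6, with 10 counts or fewer per library.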
